A study of Homo sapiens with 8 samples.

Results

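DNAJB12 and VCP are 2 of the 20056 protein-coding genes of the RefSeq table for GRCh38.p14, and were chosen by the fold enrichment of their RFX7 peaks, which is among the 10 highest of the Nutlin-3a list. Their entries are all peaks whose summit, the position of strongest signal, lies within 50 kb of either end of the gene. This gave 2 of the 505 entries of the DMSO list and 3 of the 622 entries of the Nutlin-3a list, or 5 of 1127 in all. The lists come from chromatin immunoprecipitation and sequencing (ChIP-seq) of RFX7, a transcription factor of the RFX family, in HCT116 cells, a line from a human colorectal carcinoma whose p53 is functional. The cells received 10 µM Nutlin-3a, a compound that keeps MDM2 from degrading p53, or the solvent DMSO, for 24 h. Each treatment had 2 RFX7 samples and 2 input samples of sonicated chromatin without immunoprecipitation. A single peak list stands for each treatment, with no value per replicate, so no difference between the treatments can be set against replicate spread and no test was made. The number of reads per sample is unknown here.

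Both proteins act in the removal of misfolded proteins from the endoplasmic reticulum, called ER-associated degradation (ERAD). DNAJB12 is a J-domain protein of the ER membrane that brings HSP70 chaperones to membrane proteins and passes those that fail to fold to ubiquitin ligases. VCP, also called p97, is a ring-shaped ATPase that pulls ubiquitinated proteins out of the membrane and hands them to the proteasome. RFX factors are known for binding the X-box, an inverted repeat of a short arm, mostly in promoters.

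The peaks of the 2 genes lay at opposite ends. At VCP, the RFX7 peak of each list covered the start of the gene, with summits 143 bp (DMSO) and 67 bp (Nutlin-3a) upstream of it. At DNAJB12, every summit lay beyond the terminus, and the start, 22148 bp or more from each summit, had no peak in either list. DNAJB12 and VCP each had a summit within 5 kb of an end in both lists, where 0.763% of all protein-coding genes had a DMSO summit and 1.08% had a Nutlin-3a summit. Within 50 kb, the distance of the selection rule, these shares were 2.03% and 3.04%. The genes were chosen for their Nutlin-3a peaks, so nothing is read from that count.

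The stretch upstream of the VCP start is shown because both VCP peaks lie over it. That of DNAJB12 is shown as the start without a peak, and that of DDIT4 because the nearest peaks beyond the 50 kb limit on chromosome 10 lie over it. DDIT4, also called REDD1, is a stress-induced inhibitor of the growth kinase complex mTORC1. Each is the 250 bases before the start in the direction of transcription, from the RefSeq promoter table (GRCh38.p14). VCP is chr9:35072626-35072875 on the minus strand, DNAJB12 is chr10:72354920-72355169 on the minus strand and DDIT4 is chr10:72273674-72273923 on the plus strand. Capitals mark the X-box arm GTTGCT and the CCAAT box, the latter as CCAAT or, on the other strand, ATTGG.
VCP: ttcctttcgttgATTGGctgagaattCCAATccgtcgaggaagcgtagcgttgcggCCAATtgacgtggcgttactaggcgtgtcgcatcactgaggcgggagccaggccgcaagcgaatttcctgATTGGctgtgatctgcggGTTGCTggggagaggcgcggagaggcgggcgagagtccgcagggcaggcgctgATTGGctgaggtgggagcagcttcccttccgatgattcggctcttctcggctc
DNAJB12: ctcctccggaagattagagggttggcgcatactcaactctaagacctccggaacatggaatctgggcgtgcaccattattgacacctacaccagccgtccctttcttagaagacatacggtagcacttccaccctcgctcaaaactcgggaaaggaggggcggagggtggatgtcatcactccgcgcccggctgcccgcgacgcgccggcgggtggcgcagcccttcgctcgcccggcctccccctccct
DDIT4: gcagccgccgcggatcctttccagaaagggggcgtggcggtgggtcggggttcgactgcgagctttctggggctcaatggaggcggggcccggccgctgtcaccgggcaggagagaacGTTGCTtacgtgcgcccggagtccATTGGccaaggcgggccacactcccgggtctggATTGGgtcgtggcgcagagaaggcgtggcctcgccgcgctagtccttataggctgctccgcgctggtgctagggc

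The arm was searched on both strands in 2 forms, GTTGCC and GTTGCT. In the window of 300 bases from 250 before to 50 after its start, VCP held GTTGCT 1 time and GTTGCC 0 times. The match lay at 35072726 to 35072731 on chromosome 9, which is 101 to 106 bp upstream of the start. It stood between the summits of both lists, 37 bp from the DMSO summit and 34 bp from the Nutlin-3a summit. GTTGCT was found in 12.8% of all 35116 promoter windows in the table, in 53.2% of the 47 windows that held a DMSO summit and in 41.1% of the 90 that held a Nutlin-3a summit. A gene with several starts has several windows, so these windows are not independent. The whole X-box, written GTTGCCNNGGCAAC, was matched at no more than 8 of its 12 fixed letters in the VCP window, which 64.0% of all windows reached. The DNAJB12 window held neither form of the arm and reached 7 of the 12 letters. The DDIT4 window held GTTGCT 1 time, 127 to 132 bp upstream of the start and 17 bp from the Nutlin-3a summit. These matches describe letters and do not show a bound site. The sequence under the DNAJB12 peaks was not analysed here.

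VCP had 1 entry in each list. The DMSO peak covered 35072608 to 35072888 on chromosome 9, a width of 281 bp, from 263 bp upstream to 17 bp downstream of the start. Its fold enrichment, the authors' own value for signal over local background, was 13.1 and its −log10 q was 89.4. The Nutlin-3a peak covered 35072568 to 35072907, a width of 340 bp, from 282 bp upstream to 57 bp downstream of the start. Its fold enrichment was 23.5 and its −log10 q was 207. The whole DMSO peak lay inside the Nutlin-3a peak, of which it made up 82.6%, and the summits were 76 bp apart. Both entries thus mark the same stretch, which runs from the promoter just past the start.

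**Figure D1:**
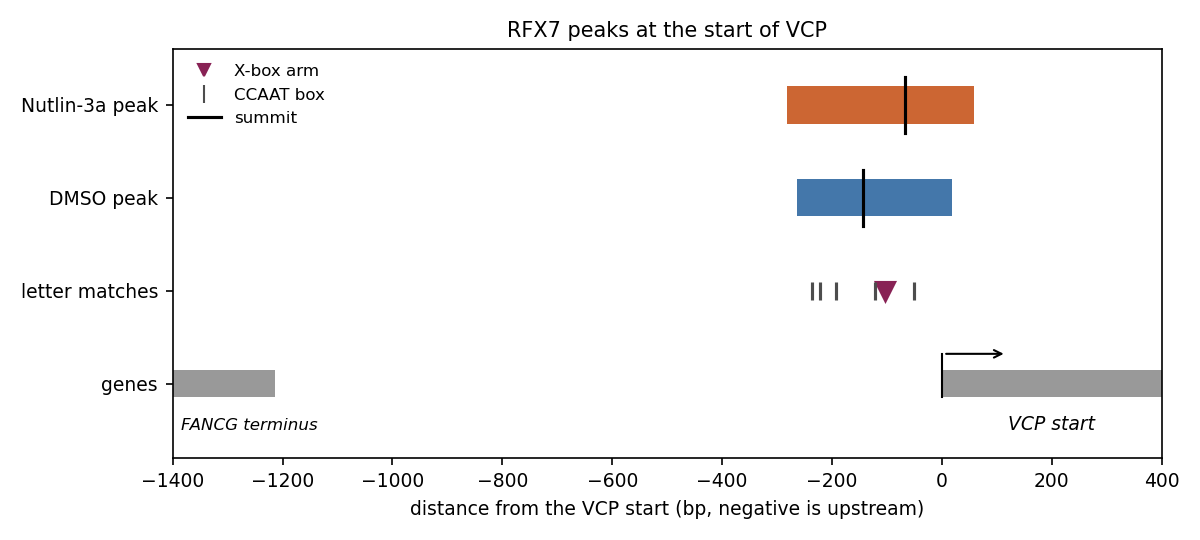
RFX7 peaks at the VCP start, by distance from the start in bp (negative is upstream, VCP runs to the right). Bars span the DMSO and Nutlin-3a peaks, black lines are summits, the triangle is the X-box arm and ticks are CCAAT boxes. Both peaks cross the start, and the arm falls between the summits at 143 bp (DMSO) and 67 bp (Nutlin-3a) upstream.

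The VCP peak stood near the top of both rankings by fold enrichment, at rank 10 of 505 for DMSO and rank 9 of 622 for Nutlin-3a. The Nutlin-3a rank is part of what chose the gene, and ranks in lists of different length show no change. It was also isolated, since the nearest other entry on chromosome 9 was 7827458 bp away under DMSO and 7827334 bp away under Nutlin-3a. VCP shares the area with FANCG, a component of the Fanconi anaemia DNA repair complex, whose terminus was 1071 bp from the DMSO summit and 1147 bp from the Nutlin-3a summit. FANCG and VCP are transcribed in the same direction, so the peak sits between the end of one and the start of the other. Further genes with an end within 50 kb of the VCP summits were PIGO, an enzyme of glycolipid anchor synthesis, STOML2, a protein of the inner mitochondrial membrane, SPATA31G1 and ATOSB. Their nearer ends were between 15.9 kb (PIGO) and 31.4 kb (ATOSB) away, and none was closer to a summit than VCP.

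DNAJB12 had 1 DMSO entry and 2 Nutlin-3a entries. The gene covers 72332863 to 72354919 on chromosome 10 and is transcribed on the minus strand, so its start is the higher coordinate. The DMSO peak covered 72331961 to 72332630, a width of 670 bp, with its summit 862 bp past the terminus. Its fold enrichment was 6.15 and its −log10 q was 113. The larger Nutlin-3a peak covered 72331864 to 72332630, a width of 767 bp, with its summit 672 bp past the terminus. Its fold enrichment was 32.3, the highest of the list, and its −log10 q was 245. Both peaks end at the same base on the side of DNAJB12, and the DMSO peak made up 87.4% of the Nutlin-3a peak. Their summits were 190 bp apart, with the DMSO summit only 40 bp from the edge of its peak and the Nutlin-3a summit 327 bp from the same edge of its own.

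The second Nutlin-3a entry was small and lay closer to the gene. It covered 72332726 to 72332906, a width of 181 bp that crosses the terminus, and its summit stood 92 bp past the terminus. Its fold enrichment was 4.37 and its −log10 q was 7.95, which placed it at rank 200 of 622 by fold enrichment. A gap of 95 bp separated it from the larger peak, and no DMSO entry overlapped it.

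**Figure D2:**
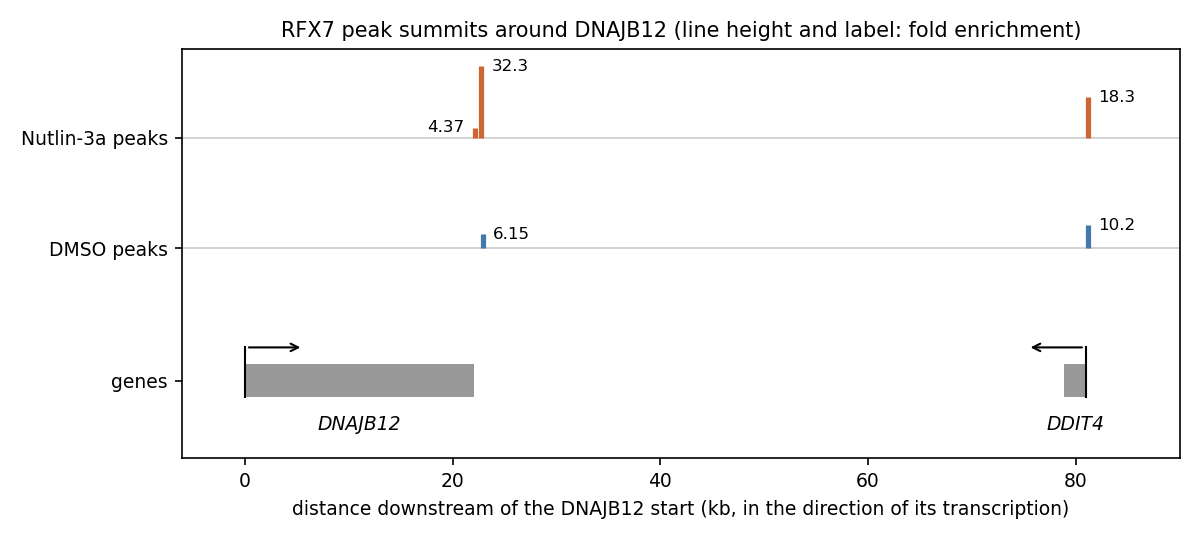
RFX7 peak summits around DNAJB12, by distance downstream of its start in kb along its direction of transcription. Line height and label give the fold enrichment, to be compared within a row only, and grey bars are genes with an arrow at the start. The DNAJB12 peaks sit just past its terminus, with 32.3 for the larger Nutlin-3a peak, and a separate peak in each list sits at the DDIT4 start.

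The nearest entries just beyond the 50 kb limit lay at DDIT4, which is transcribed towards DNAJB12 from the far side of the gap between them. The start of DDIT4-AS1, a non-coding RNA of the opposite strand, lies under the same DDIT4 peaks. In the DMSO list the DDIT4 peak covered 72273502 to 72274112 with a fold enrichment of 10.2 and rank 21. In the Nutlin-3a list it covered 72273288 to 72274142 with a fold enrichment of 18.3 and rank 16. Their summits lay 59.1 kb from the nearer end of DNAJB12 in both lists, and 169 bp (DMSO) and 149 bp (Nutlin-3a) from the DDIT4 start. The larger DNAJB12 peak in turn lay 56.2 kb from the DDIT4 terminus. DNAJB12 was therefore the nearest protein-coding gene by distance, but no listed start lay within 22.7 kb of that summit. Which gene, if any, the peak acts on was not tested, and no expression was measured in these files.

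The distance to a gene start was compared across the strongest Nutlin-3a peaks. Of the 10 highest by fold enrichment, 7 had their summit within 1 kb of a listed gene start, with VCP the closest at 67 bp. Most of these 10 fold enrichments are uncertain, as described below. The DNAJB12 peak was the farthest at 22728 bp, and one other peak, at rank 3, lay 21942 bp away. Over the whole Nutlin-3a list, 121 summits were at most 1 kb from the nearer end of their closest coding gene. The nearer end was a start for 90 of them, a terminus for 11 and of unknown strand for 20. Of the 11 at a terminus, 2 had no listed start within 5 kb, and these were the 2 DNAJB12 entries, which lie 95 bp apart. After the larger DNAJB12 peak, the next highest fold enrichment among the 11 was 6.21. DNAJB12 was chosen by the fold enrichment of that peak, so its first place among the 11 was fixed in advance. The 20 of unknown strand could include further termini. In the DMSO list, 88 summits were at most 1 kb from such an end, 65 at a start, 8 at a terminus and 15 of unknown strand.

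**Figure D3:**
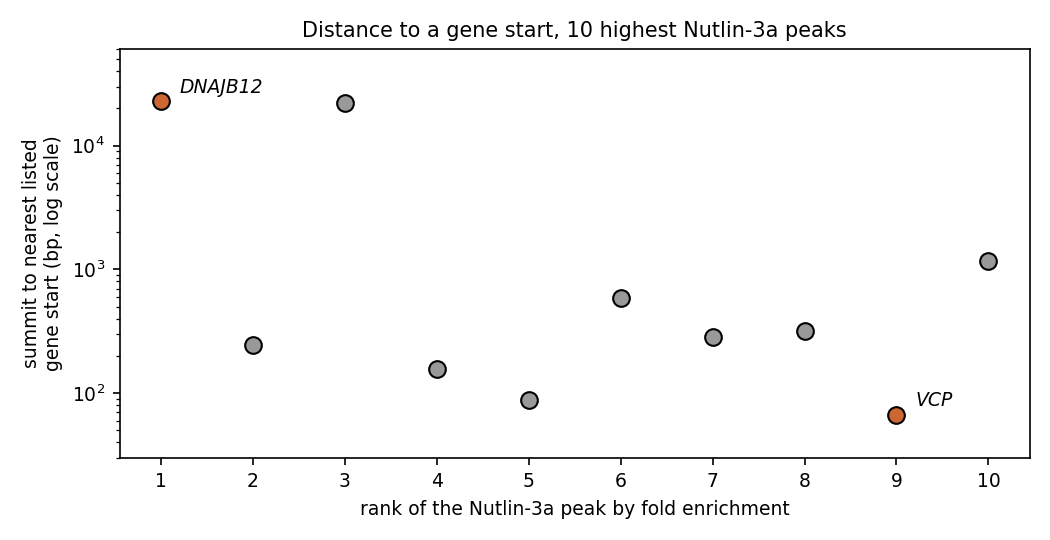
Distance from the summit to the nearest listed gene start (bp, log scale) for the 10 Nutlin-3a peaks of highest fold enrichment, by rank. Each point is 1 peak, with the DNAJB12 and VCP peaks coloured. DNAJB12 is the farthest from a start at 22728 bp and VCP the closest at 67 bp.

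The order of the 2 genes depended on the measure in the DMSO list, while in the Nutlin-3a list DNAJB12 stood above VCP by each measure. By fold enrichment the VCP peak stood above the DNAJB12 peak in the DMSO list (13.1 against 6.15, ranks 10 and 59) and below it in the Nutlin-3a list (23.5 against 32.3, ranks 9 and 1). Rank 59 is shared with another DMSO entry of the same fold enrichment. By −log10 q, the DNAJB12 peak stood above the VCP peak in both lists, at ranks 52 and 68 of 505 and ranks 12 and 24 of 622. The values of the DMSO entry at DNAJB12 and of both VCP entries are uncertain, and so are their ranks by either measure. With the definitions that MACS2 uses, fold enrichment and p-value together fix the pileup, or how many extended reads cover a position, which should be a whole number. Both Nutlin-3a entries at DNAJB12 gave one, with a pileup of 215 over a background of 5.68 for the larger and 31 over 6.32 for the smaller. The DMSO entry at DNAJB12 and both VCP entries did not. The check joins fold enrichment and p-value, so it cannot tell which of them is off. The −log10 p and −log10 q of these entries are therefore as uncertain as their fold enrichments. Of the 10 highest entries by fold enrichment, 6 (DMSO) and 3 (Nutlin-3a) gave one. Rank 1 of the larger DNAJB12 peak therefore rests on a comparison with mostly uncertain values. Entries without a whole pileup numbered 104 of 505 under DMSO and 223 of 622 under Nutlin-3a. The deposited values are rounded. At a low fold enrichment with a very large pileup, such as 1.27 with 16350 in a DMSO entry, a whole number cannot be told from another. Such an entry can also be called whole, as was 1 with a pileup of 6039 over 3960 in the Nutlin-3a list. A pileup above the largest one searched would not be called whole either. These counts may therefore hold entries where rounding or the search hides the answer and entries whose columns do not describe a single position. The reasons were not separated.

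Among the entries at most 5 kb from a coding gene's end, 154 for DMSO and 204 for Nutlin-3a, both genes stood high by −log10 q. This subset was chosen after the data were seen, and the genes were chosen by their Nutlin-3a fold enrichment, so nothing is read from these ranks. Over all DMSO entries, DNAJB12 was at rank 52 and VCP at rank 68 by −log10 q. In the subset the ranks were as follows. By −log10 q, DNAJB12 was at rank 6 (DMSO) and 2 (Nutlin-3a), and VCP at rank 11 and 6. By fold enrichment in the same entries, DNAJB12 was at rank 35 and 1 and VCP at rank 7 and 6.

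**Figure D4:**
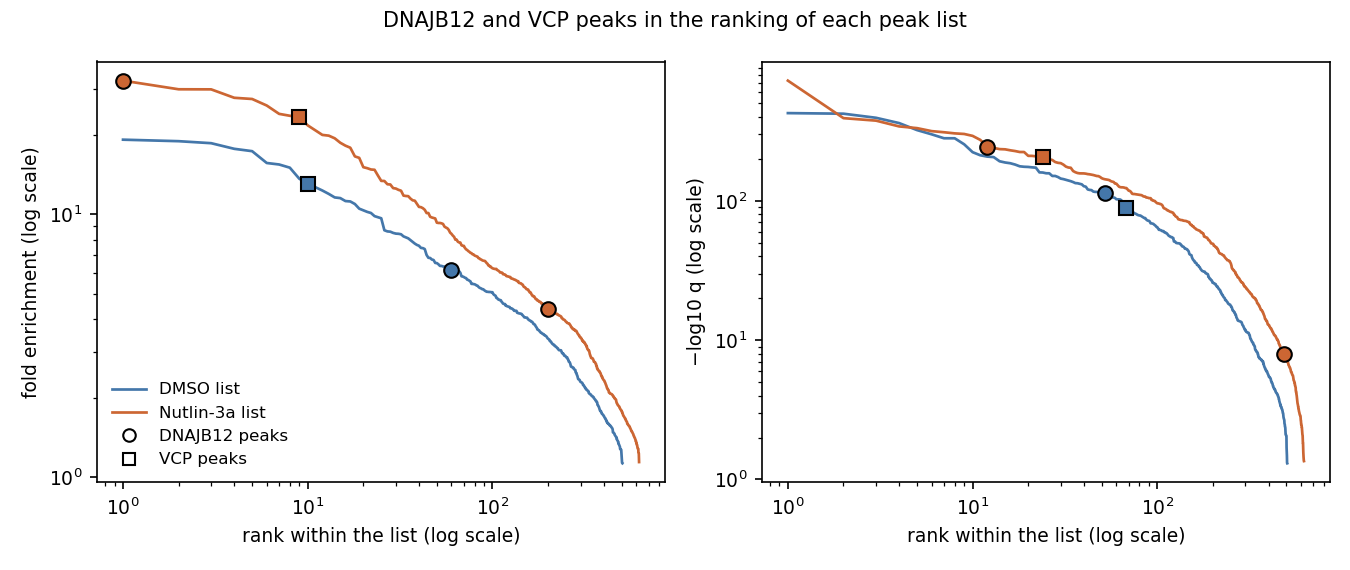
Fold enrichment (left) and −log10 q (right) of every entry against its rank within its list, all axes on a log scale, with blue for DMSO and orange for Nutlin-3a. Circles are DNAJB12 entries and squares VCP entries. By fold enrichment DNAJB12 is at rank 59 (DMSO, shared with another entry) and 1 (Nutlin-3a) and VCP at 10 and 9. By −log10 q DNAJB12 is above VCP in both lists, but the values of the DMSO entry at DNAJB12 and of both VCP entries are uncertain.

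The peaks most like each gene's were sought among 88 other genes with a peak in both lists within 5 kb of an end, by the distance between rank percentiles in the 2 lists. For VCP these were RAP2A, a small GTPase (rank 11 for DMSO and 10 for Nutlin-3a), KDM4A, a histone demethylase (ranks 8 and 8), and TOB2, an antiproliferative protein (ranks 7 and 11). For DNAJB12 they were PNRC2, a nuclear receptor coactivator (ranks 54 and 2), DIP2A (ranks 51 and 5) and PTMS, which encodes parathymosin (ranks 50 and 24). Both orders rest on uncertain fold enrichments, that of the DMSO entry for DNAJB12 and those of both entries for VCP. RAP2A, KDM4A, PNRC2 and DIP2A are among the 10 highest Nutlin-3a entries, of which only 3 had a whole pileup. Some of their fold enrichments are therefore uncertain too.

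Other genes of protein quality control were checked in 5 lists. Of their 104 genes, all found in the gene table, 0 had a summit within 5 kb of an end in either list. The lists held 32 genes of the ERAD machinery, such as the ubiquitin ligase SYVN1 and its partner SEL1L, and 29 cofactors of VCP, such as UFD1 and NPLOC4. They also held 23 J-domain proteins, including DNAJB14, the closest relative of DNAJB12, 13 HSP70 chaperones and 12 genes of the unfolded protein response, with 5 of the genes in more than 1 list. At background shares of 0.763% and 1.08%, a count of 0 is little different from that of all genes. Within 50 kb there were 3 of the 104 in each list, against 2.03% and 3.04% of all genes. They were OS9, a lectin that recognises ERAD substrates, and the VCP cofactors UBXN1 and UBXN2B. In the Nutlin-3a list the summit nearest OS9 was 30.9 kb from its end but 163 bp from an end of CDK4, and the summit nearest UBXN1 was 48.8 kb from its end but 207 bp from an end of TTC9C. The summit nearest UBXN2B was 17.7 kb from its end, with no coding gene closer, and had a fold enrichment of 3.33 there and 2.64 in the DMSO list. DNAJB5, another J-domain gene, lies 73.8 kb from the Nutlin-3a summit at VCP and had no peak of its own within 50 kb.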

How the data were processed

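The authors deposited 1 narrowPeak list per treatment with no header. Per the submitters' processing notes the build is hg38, and the tools named, with no role or order, include Trimmomatic 0.39, SAMtools 1.10, MACS2 2.2.7.1 and bedtools 2.29.2. Whether replicates were pooled is not given in the sources used here. The deposited values are the fold enrichment (a ratio over local background), the −log10 p and −log10 q and a score. The deposited score equals −log10 q times 10, rounded down, in 503 DMSO and 621 Nutlin-3a entries. The deposited summit offset was added to the start, and coordinates are 1-based.

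Gene ends came from the RefSeq gene table, and strand and starts from the RefSeq promoter table, both GRCh38.p14. All 3 genes with a printed sequence were matched by symbol. Neither table is complete. Pileups were solved from fold and p and called whole within 0.02 of a whole number, in 401 DMSO and 399 Nutlin-3a entries. This solver and the letter search were tested on simulated data. The simulated pileups did not cover the low fold enrichments or the very large pileups found in the lists. Python 3.11.15, pandas 2.3.3 and scipy 1.17.1 were used.

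The genes, the lists and the rules were chosen with earlier results of these data known. Named genes were DNAJB12, VCP, genes with an end within 50 kb of their summits, list genes with a summit within 5 kb, and per gene the 3 genes with the nearest rank percentiles. OS9, UBXN1, UBXN2B and DNAJB5, and DDIT4 as the nearest beyond 50 kb, were added after their values were seen. One gene named by the rule is not reported here.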

Additional observations from a re-analysis of the deposited data

How the results depend on the processing

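No paired analysis was possible because the lists hold 1 value per peak and none per replicate, and no replicate could be left out either. Of 40 alternative values, 17 were identical to the reported one, 3 numbers of entries changed by no more than 1.5 times and 20 moved, where any change of rank counts as a move. Those 3 were the entries at the 2 genes within 100 kb (3 for DMSO and 4 for Nutlin-3a) and the Nutlin-3a entries with −log10 q of at least 10 (2). By −log10 p, and likewise by −log10 q, the DNAJB12 peak ranked 52 (DMSO) and 12 (Nutlin-3a) and the VCP peak 68 and 24. With only entries of −log10 q of at least 10, the DMSO peak at DNAJB12 ranked 58 by fold enrichment. Among entries within 5 kb of a coding gene end, a choice made after seeing the data, DNAJB12 ranked 35 (DMSO) by fold enrichment and 6 and 2 by −log10 q, and VCP ranked 7 and 6 by fold enrichment and 11 and 6 by −log10 q. With summits required within 100 bp, 1 of the 2 shared pairs remained, that at VCP. At 50 kb, 3 list genes had a summit in each list. The X-box arm ending in T was found 1 time in the VCP window, and the form ending in C 0 times. A window around each summit was not run because it needs genome sequence. Depth per sample is unknown, so no counting error is given.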

Other observations

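The VCP promoter was also rich in CCAAT boxes, the element bound by the factor NF-Y. This word was searched after the VCP sequence had been seen. The VCP window held 5, at 49 to 53 bp (the closest) to 234 to 238 bp (the farthest) upstream of the start, and at least 5 were found in 0.359% of all 35116 windows, in 10.6% of the 47 with a DMSO summit and in 7.78% of the 90 with a Nutlin-3a summit. The limit of at least 5 is the VCP count itself, and the VCP window is among the 47 and the 90. All 5 boxes of VCP lie within both VCP peaks. The box closest to the X-box arm stood 120 to 124 bp upstream, 19 bp from the DMSO summit. The DDIT4 window held 2 and the DNAJB12 window 0. Among windows with a DMSO summit, 85.1% held at least 1 CCAAT box, and among those with a Nutlin-3a summit 74.4% did, against 34.6% of all windows. Either form of the X-box arm was found in 74.5% and 65.6% of these windows, against 23.1% of all. These shares were not tested.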
